A study of Drosophila melanogaster with 55 samples.

Results

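The genes described here are 10 genes of fly phototransduction, chosen by name for their work in photoreceptor cells: ninaE, trp, trpl, norpA, Arr1, Arr2, inaD, inaC, ninaC and Galphaq. They were 10 of 13968 protein-coding genes of the annotation. Heads of Drosophila melanogaster were examined by ChIP-seq, and each list gives the islands of 1 library, that is, the stretches enriched over input DNA. Of 55 samples, 33 had such a list and the other 22 were input. The window of a gene was its annotated span with 2 kb on either side, and its value in a list was the percentage of the window inside islands with a score of at least 200. The lists measure chromatin and not RNA, so they do not show how strongly these genes were expressed in the heads. The paper also reports RNA-seq and microarrays of heads, which were not used here.

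All flies were adults 1 to 2 weeks old, and heads were pooled. The control line is w1118. For HP1 there were 3 libraries of w1118, 3 of the mutant Top3b26, 2 of the mutant AGO2 1-1-7 and 2 of flies with both mutations, called the double mutant. Top3b26 was made by remobilizing a P element, and AGO2 1-1-7 is a CRISPR line that lost part of its promoter and part of an exon. H3K9me2 and H3K9me3 each had 3 libraries from w1118 and 3 from Top3b26. An antibody to Top3b was used on w1118 heads in 3 libraries. The FLAG antibody was used in 2 libraries of FLAG-AGO2 flies and in 1 of untagged w1118, where no tagged protein is present. The paper describes the FLAG-AGO2 line as carrying a Flag tag knocked into the AGO2 gene. Its list of stocks instead names a w1118 stock with Flag- and HA-tagged AGO2 on an inserted P element. A complementation set had 1 HP1 library each for w1118, Top3b26, and Top3b26 carrying 1 of 3 transgenes under Act, a driver active in most cells: WT encodes normal Top3b, Y332F a protein with its active-site tyrosine changed, and dRGG one that lacks the RGG box. The labels call the libraries of a group repeats, and p-values measure only the spread between them.

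The lists were unequal. They held 585 to 11046 islands, and 341 to 8600 passed the score. The shortest, FLAG-AGO2 replicate 2, is by its name an increase over the control and so not the same kind of list as replicate 1, and it reached 4.2% of all gene windows. Top3b replicate 3 reached 3.99%. The closest islands lay 700 bp apart in most lists but 1100 bp apart in 4 HP1 lists, replicates 2 and 3 of w1118 and of Top3b26, where gaps under that length do not occur. By title and antibody, 1 Top3b26 library was H3K9me3 (replicate 2), while its description names H3K9me2. A Top3b library titled replicate 2 has a description that names replicate 3. All H3K9me2 and H3K9me3 lists of a line were called against the same input.

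Phototransduction turns light into a change of membrane potential. Light converts rhodopsin, Rh1 (the product of ninaE) in the outer photoreceptors, which activates the G protein alpha subunit Galphaq. Galphaq turns on the phospholipase C encoded by norpA, and the channels TRP and TRPL (trp, trpl) open. The scaffold INAD (inaD) holds TRP, the phospholipase and the eye-specific protein kinase C (inaC) together. The arrestins Arr1 and Arr2 switch rhodopsin off, and NINAC (ninaC), a myosin with a kinase domain, also acts in the termination of the response. HP1 and H3K9 methylation are marks of heterochromatin, which is mostly silent. Top3b is a topoisomerase for DNA and RNA, and AGO2 is the Argonaute protein of siRNA-guided silencing. The comparison of lines asks whether loss of Top3b or AGO2 changes HP1 or H3K9 methylation at genes that photoreceptors use.

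The promoters of norpA, ninaE and Arr2 are shown because islands often covered their start sites, in 11, 6 and 3 of the 21 FLAG, Top3b and HP1 lists. That of Galphaq (7 lists) is not printed. That of ninaC is added, chosen after its values were seen, because it met no island in any list. Each runs from 250 bases before the annotated start to 50 bases after it, 5′ to 3′ on the strand of the gene, read from the RefSeq Release 6 genome (dm6). Capitals mark 3 motifs searched on both strands: TAATNNNATTA, TATAAA and GAGAG. The first is a simplified form of the core of the element shared by rhodopsin promoters, with its last base fixed and its 3 middle bases left free. norpA lies on chromosome X (chrX:4322376-4322675, plus strand), ninaE on 3R (chr3R:19888157-19888456, minus strand), Arr2 on 3L (chr3L:8648887-8649186, minus strand) and ninaC on 2L (chr2L:7377452-7377751, plus strand).
norpA: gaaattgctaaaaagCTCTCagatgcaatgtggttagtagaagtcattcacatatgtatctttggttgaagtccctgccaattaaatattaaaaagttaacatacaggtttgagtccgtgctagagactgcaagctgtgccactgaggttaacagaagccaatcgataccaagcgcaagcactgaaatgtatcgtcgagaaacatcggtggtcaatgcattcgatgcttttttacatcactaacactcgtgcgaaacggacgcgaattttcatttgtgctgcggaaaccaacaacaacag
ninaE: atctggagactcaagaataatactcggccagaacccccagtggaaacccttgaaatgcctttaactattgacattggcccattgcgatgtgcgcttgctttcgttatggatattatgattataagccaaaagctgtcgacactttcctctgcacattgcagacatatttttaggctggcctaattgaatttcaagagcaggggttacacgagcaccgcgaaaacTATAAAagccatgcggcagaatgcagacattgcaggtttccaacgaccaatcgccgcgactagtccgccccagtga
Arr2: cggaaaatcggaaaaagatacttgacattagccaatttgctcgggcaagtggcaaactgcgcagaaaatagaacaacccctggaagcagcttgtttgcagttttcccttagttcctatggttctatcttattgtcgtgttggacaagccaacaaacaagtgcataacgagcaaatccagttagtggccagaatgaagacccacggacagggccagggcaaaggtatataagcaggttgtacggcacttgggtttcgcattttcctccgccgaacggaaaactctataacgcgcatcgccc
ninaC: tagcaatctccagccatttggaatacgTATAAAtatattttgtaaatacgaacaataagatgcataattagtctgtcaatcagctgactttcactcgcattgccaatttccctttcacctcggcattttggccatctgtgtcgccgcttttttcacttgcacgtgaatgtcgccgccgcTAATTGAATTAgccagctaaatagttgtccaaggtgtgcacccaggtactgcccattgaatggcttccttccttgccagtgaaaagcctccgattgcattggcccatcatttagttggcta

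In ninaE the TATAAA motif ran from base -26 to base -21 before the start. The ninaE promoter also held TAATTGAATTT, left in lower case. It differs from TAATNNNATTA at the last base alone, so the search did not count it. In ninaC TAATNNNATTA lay from -71 to -61 and TATAAA from -223 to -218. norpA held GAGAG on the opposite strand from -235 to -231, and Arr2 held none of the 3 motifs. Over all 10 genes, an exact TAATNNNATTA was in 3 promoters (trp, trpl and ninaC), TATAAA in 6 and GAGAG in 1. Forms with another last base, like that of ninaE, were counted neither here nor over all promoters. Of 13968 protein-coding promoters of the same length, 3.11% held TAATNNNATTA, 45.8% TATAAA and 29.7% GAGAG. These are matches of letters, given as a description.

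The genes met islands very unevenly. Out of 33 lists, an island reached the window of ninaE in 28, of inaD in 19, of norpA in 17, of inaC in 10, of Galphaq in 7, of Arr2 in 5, of Arr1 in 3, of trp and trpl in 2 each, and of ninaC in 0. On the gene span alone the counts were 19 for ninaE, 17 for norpA, 7 for Galphaq, 5 for Arr2, 3 for Arr1, 2 each for trp, trpl and inaD, 1 for inaC and 0 for ninaC. The heatmap of windows by list shows this order. ninaE was the member with an island in the most lists, and it was the sole member under H3K9me3.

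**Figure D1:**
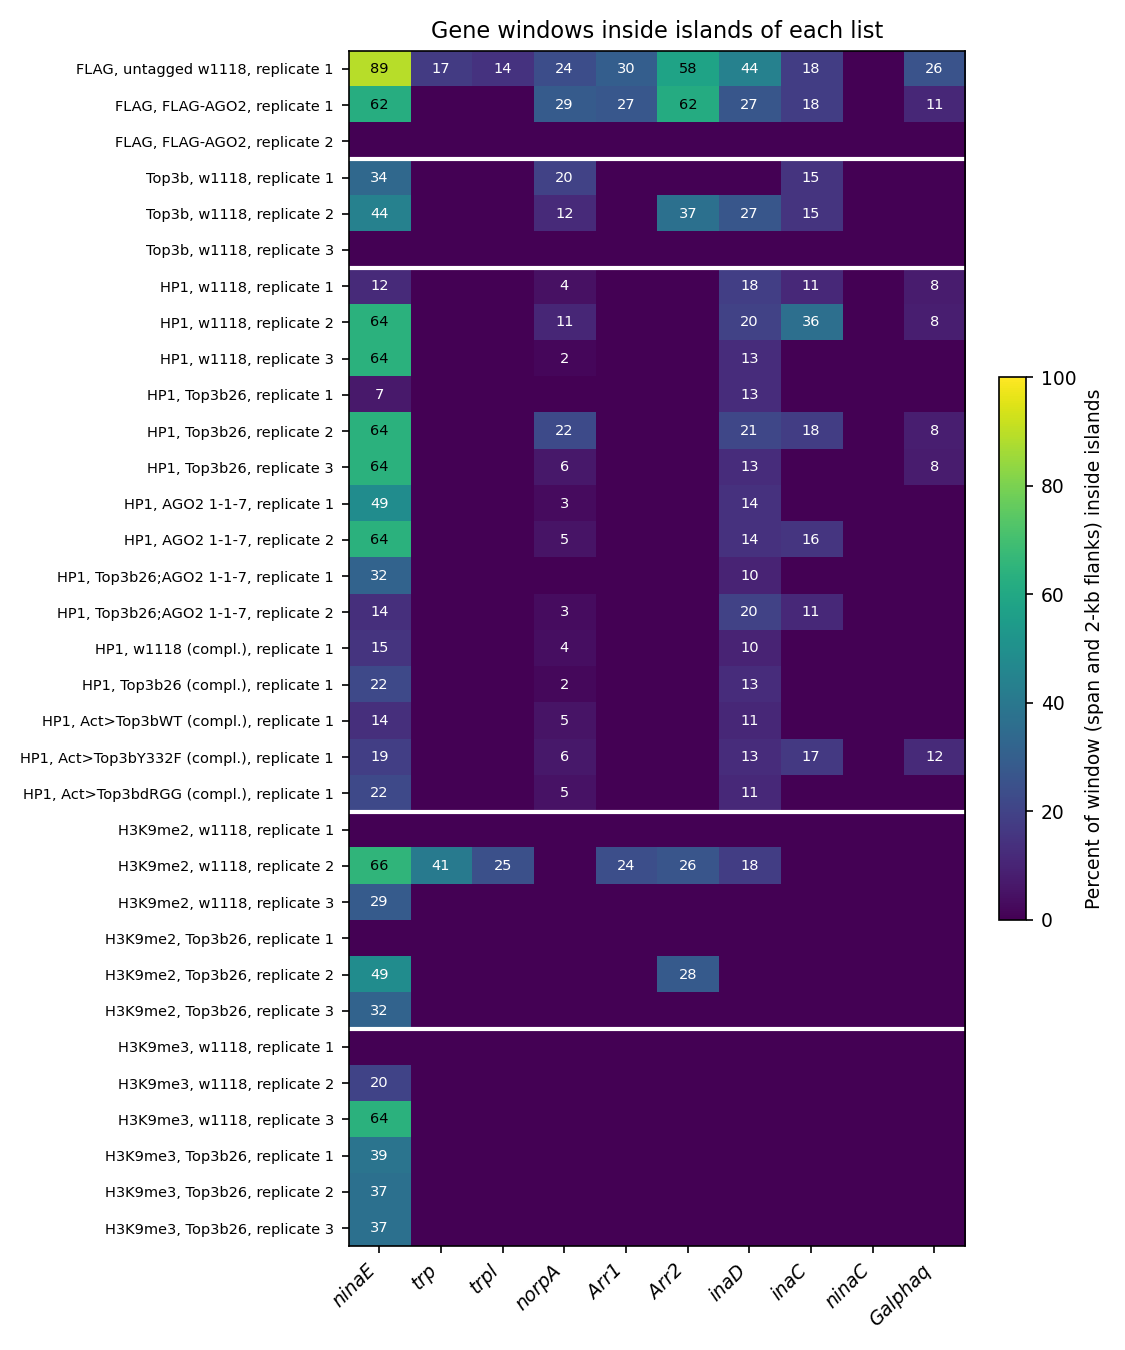
Percentage of the window of each of the 10 genes (columns) inside islands of each of the 33 lists (rows, grouped by antibody), with nonzero values printed in the cells and compl. marking the complementation set. ninaE is filled in 28 lists, ninaC in 0, and the untagged FLAG list fills 9 of 10 columns.

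The untagged FLAG list is the control of the FLAG-AGO2 lists, and its overlap with islands of the other antibodies is given beside them as a measurement. It covered 89.1% of the ninaE window, 58.1% of Arr2, 43.8% of inaD, 29.8% of Arr1, 25.6% of Galphaq, 23.5% of norpA, 18% of inaC, 17.4% of trp and 14.5% of trpl, and 0% of ninaC. An antibody with no tagged target thus gave islands at 9 of 10 genes, against 67.7% of all protein-coding genes. Its islands covered the start site of 7 of the 10, against 49.3% of all. The median window was covered at 24.5%, and at 19.7% over all genes. Its ninaE island of 6700 bp had a score of 2255, and 2.82% of the islands in that list scored higher. In bases, 25.9% of the member windows lay inside untagged islands, against 18.2% of all gene windows.

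FLAG-AGO2 replicate 1 had islands at 7 of 10 genes, against 61.9% of all genes. They covered 62.3% of ninaE, 61.7% of Arr2, 28.6% of norpA, 27.0% of Arr1, 26.9% of inaD, 18% of inaC and 11.1% of Galphaq, and 0% of trp, trpl and ninaC. All 7 also had untagged islands, and 75.4% of the FLAG-AGO2 island bases in the windows lay inside them (84.0% over all genes). Coverage was above that of the untagged library at norpA and Arr2 and below it at ninaE, trp, trpl, Arr1, inaD and Galphaq. At inaC both lists gave the same value, and at ninaC both were at 0%. FLAG-AGO2 replicate 2 had no island at any of the 10 genes, against 4.2% of all genes. With 1 untagged library there was no test of a difference between tagged and untagged flies.

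Top3b islands lay at ninaE, norpA and inaC in replicate 1 (3 of 10, against 17% of all genes) and at ninaE, norpA, Arr2, inaD and inaC in replicate 2 (5 of 10, against 29.1%). Replicate 3 had none (0 of 10, against 3.99%), and so 0 of 10 genes were covered in all 3 lists, against 2.61% of all genes. At ninaE the 3 values were 33.6%, 43.8% and 0% of the window. These islands covered 99.7% and 89.4% of the span in replicates 1 and 2. The replicate 1 island had a score of 577, and 0.861% of that list scored higher. At norpA the values were 19.9%, 11.8% and 0%, at inaC 15.1%, 15.1% and 0%, at Arr2 0%, 37.0% and 0%, and at inaD 0%, 26.9% and 0%. In both replicates a norpA island lay deep inside the gene, from 8675 to 14174 bp after its start in replicate 1 and from 8575 to 12274 bp in replicate 2, where the untagged FLAG list had no island but FLAG-AGO2 replicate 1 had one from 8675 to 13374 bp. The Arr2 island covered the whole span of Arr2 together with the start of Pex7, the overlapping gene for a peroxisomal import receptor.

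The score decided how many Top3b lists a gene appeared in. Islands in replicate 3 rarely reached 200 (7.90% of its islands), and without a minimum score ninaE was covered at 55.5%, 43.8% and 33.6%, norpA at 22.2%, 15.6% and 17.1%, Arr2 at 40.5%, 37.0% and 24.7%, inaC at 33.6%, 15.1% and 18%, and inaD at 45.2%, 34.0% and 5.63%. These 5 genes were then in all 3 lists, against 24.2% of all genes. Arr1 (29.8%) and Galphaq (10.4%) were in replicate 1 alone, and trp, trpl and ninaC were in none. At the minimum score, 41.0% of the Top3b island bases in these windows lay inside untagged FLAG islands in replicate 1 and 71.9% in replicate 2, against 87.2% and 78.2% over all gene windows. In both replicates the bases outside untagged islands were all in norpA. The Top3b islands at ninaE, inaC, Arr2 and inaD lay wholly inside untagged islands, so these shares of the 10 genes reflect norpA alone.

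HP1 islands reached the window of 5 of 10 genes in at least 1 of 15 lists, ninaE, norpA, inaD, inaC and Galphaq, against 65.1% of all genes. In all 15 lists they reached 2, ninaE and inaD, against 7.14%. On the span the counts were 4 of 10 in at least 1 list, against 53.7%, and 0 of 10 in all 15, against 4.8%. trp, trpl, Arr1, Arr2 and ninaC had no HP1 island in any list. List by list, the share of the 10 genes with an HP1 island was above that of all genes in 7 lists and below it in 8.

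**Figure D2:**
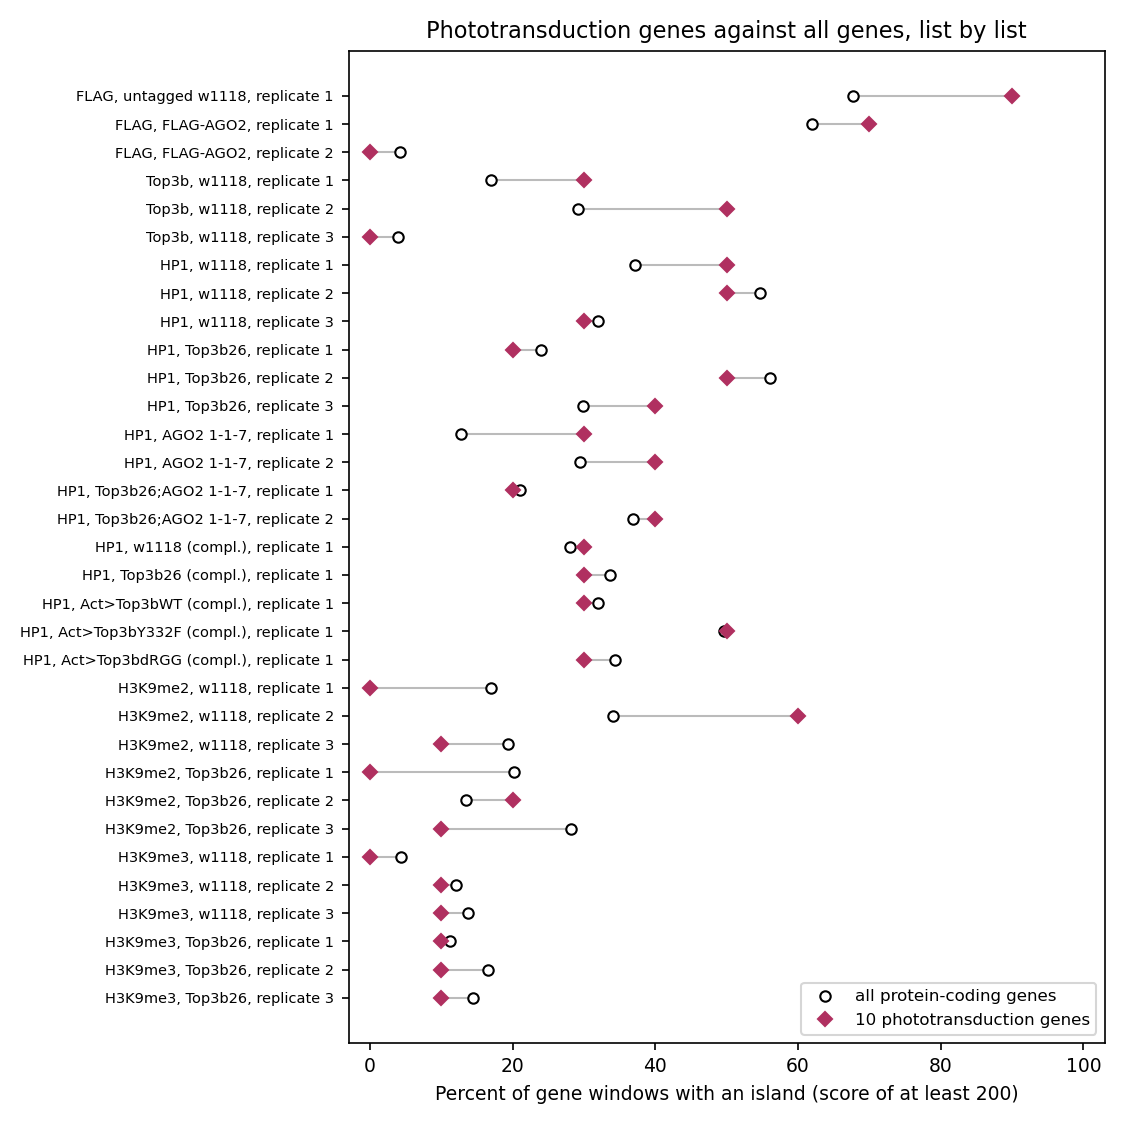
Percentage of gene windows with an island in each of the 33 lists (rows), for the 10 phototransduction genes (diamonds) and for all 13968 protein-coding genes (open circles). The diamonds lie above the circles in 7 of 15 HP1 lists and below them in all 6 H3K9me3 lists, and 1 gene moves a diamond by 10 points.

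Much of this HP1 lay beside the genes and on their neighbours. Of 71 HP1 islands in the windows, 33 touched the span of a member and 38 only a flank. The start of a member lay inside 19, and the start of another gene inside 50. Of the 38 in a flank alone, 31 covered the start of another gene. Islands were counted once in each list, so a place found in many lists counts many times. The ninaE window had 17 of the 71 and the inaD window 19, and at each of these genes 15 covered the start of another gene. Such counts were not made over all genes. In 11 of 15 HP1 lists every island base in these windows lay inside untagged FLAG islands, and the lowest share was 80.3%, against 17.2% to 54.3% over all gene windows. All gene windows include those in heterochromatin, where the paper places most HP1 islands, and the shares were not adjusted for this. Whether untagged signal took part in these HP1 islands was not tested.

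At ninaE (3R from 19886255 to 19888206) the islands fell into 2 blocks. The upstream block was present in all 15 HP1 lists and covered the start of CG4733, a divergent gene 2483 bp away that lies just outside the window and was named after its values were seen. The block on the gene itself was present in 7 of 15 lists, and the start site of ninaE lay inside islands in 5. Where both blocks were joined, in w1118 replicates 2 and 3, Top3b26 replicates 2 and 3 and AGO2 1-1-7 replicate 2, the window value was 63.9% and the span value 92.5%. AGO2 1-1-7 replicate 1 and double mutant replicate 1 had 2 separate islands, with 92.2% and 82.0% of the span. The remaining 8 lists, all 5 of the complementation set among them, covered 0% of the span.

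At inaD (2R from 22855688 to 22858794) the opposite flank was covered. HP1 islands of 700 to 1100 bp lay over the starts of RpL23, a ribosomal protein gene, and CG13531 in 15 of 15 lists, between 4094 and 5293 bp after the start of inaD. The span of inaD was covered in 0 of 15. A small second island that began at -1806 bp from the start, over no annotated start, was present in 4 lists. The untagged FLAG list had islands at both places, and at the first it ran 613 bp into the inaD span.

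**Figure D3:**
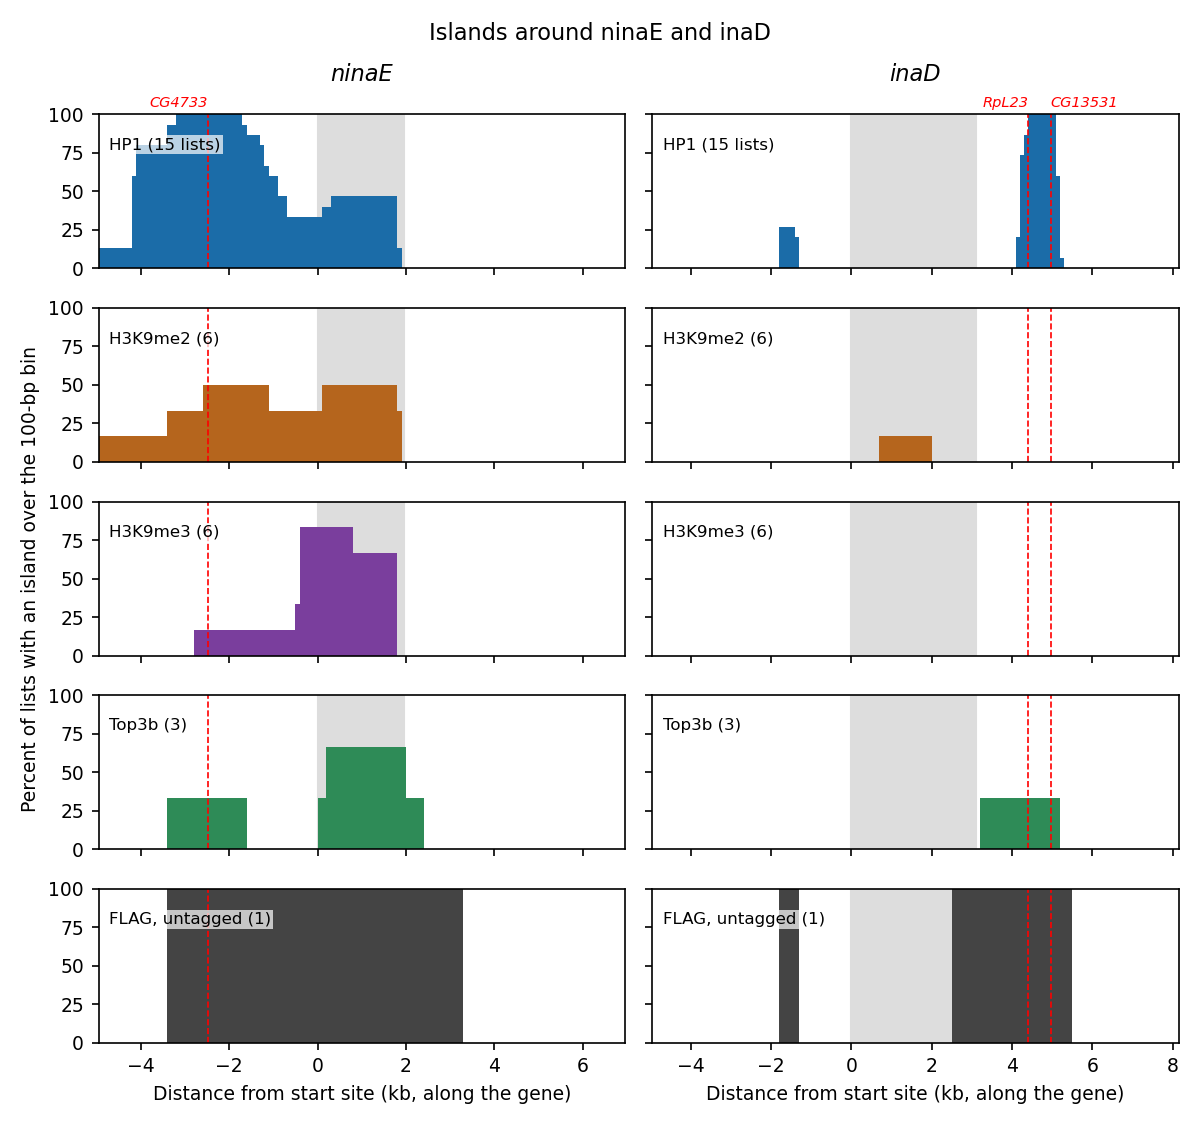
Percentage of lists with an island over each 100-bp bin, by distance from the start site in kb along the gene, for ninaE (left) and inaD (right) and 5 kinds of list (rows), with the gene span shaded and starts of neighbouring genes dashed. HP1 reaches 15 of 15 lists at the start of CG4733 beside ninaE and at RpL23 and CG13531 beside inaD, and 0 of 15 on the span of inaD.

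norpA (X from 4322626 to 4365408) is the longest member, and its HP1 islands were short stretches of it, 1.92% to 22.4% of the window in the 13 lists that had any. In 8 lists an island covered its start together with that of mRpL33, a mitochondrial ribosomal protein gene that begins 395 bp away on the opposite strand. Other islands began inside the gene, most often at 1375 bp after the start and again at 29375 bp, and in 4 lists one lay on the start of CG3626 behind the gene. Galphaq (2R from 12612740 to 12623197) had HP1 islands in 5 lists, always over its start, which is annotated at the same base as that of CG45086. inaC (2R from 16898535 to 16901575) had them in 6 lists, upstream, where they reached the start of CG8910 in 3 (CG8910 lies outside the window and was named after its values were seen). An HP1 island touched the inaC span in w1118 replicate 2 alone.

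HP1 at ninaE was 11.9%, 63.9% and 63.9% of the window in the 3 w1118 libraries, and 6.82%, 63.9% and 63.9% in Top3b26. The groups overlapped almost completely, and the mean differed by -1.68 percentage points (exact permutation p = 1). The low library of each group was replicate 1, whose lists have the 700-bp distance. Among lists of that distance the difference was -5.04, and among lists of 1100 bp it was 0. norpA was at 4.49%, 10.7% and 1.92% in w1118 and at 0%, 22.4% and 6.41% in Top3b26, a difference of 3.92 (exact permutation p = 0.8), which was -4.49 within the 700-bp lists and 8.12 within the 1100-bp lists. inaD was at 18.5%, 19.9% and 12.8% against 12.8%, 21.3% and 12.7%, a difference of -1.47 (exact permutation p = 0.9).

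inaC was at 11.4%, 36.4% and 0% in w1118 and at 0%, 18% and 0% in Top3b26, a difference of -9.94 (exact permutation p = 0.7). Without w1118 replicate 2 that difference was 0.312. Galphaq was at 7.61%, 8.30% and 0% against 0%, 8.30% and 7.61%, with equal means, -7.61 within the 700-bp lists and 3.8 within the 1100-bp lists. In the 700-bp pair, 1 library of each line, all 5 covered genes were lower in Top3b26, with differences of -5.63 at inaD and -11.4 at inaC, which within the 1100-bp lists were 0.612 and -9.23. The remaining 5 genes were at 0% in all 6 libraries. The groups did not overlap at 0 of 10 genes, against 0.415% of all genes, and the median difference was 0 over the 10 genes and 0 over all genes.

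In AGO2 1-1-7 HP1 at ninaE was 48.8% and 63.9%, a mean of 56.4% ± 10.7 (SD, n = 2) against 46.6% ± 30.1 (SD, n = 3) in w1118. This was 9.80 points higher, less than 1 SD of w1118 (exact permutation p = 1). The difference was -7.56 without w1118 replicate 1 and 44.5 against that replicate alone, the w1118 list with the same island distance. norpA was at 2.78% and 5.13%, and inaD at 14.3% and 14.1%, both between the lowest and the highest w1118 library. inaC was at 0% and 15.6%, and Galphaq at 0% in both libraries. The difference at Galphaq was -5.30 (exact permutation p = 0.4), since w1118 replicate 3 was at 0% as well. The groups did not overlap at 0 of 10 genes, against 10.4% of all genes (1392 genes below w1118 and 54 above). Without w1118 replicate 3 they did not overlap at 2 of 10, against 16.9% of all genes in the same smaller comparison. The median difference was 0 over the 10 genes and -0.67 over all genes.

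In the double mutant ninaE was at 32.0% and 13.5%, a mean of 22.8% ± 13.1 (SD, n = 2). Both libraries lay between w1118 replicate 1 and the other w1118 libraries, and the difference of -23.8 points had an exact permutation p of 0.4. Against w1118 replicate 1, the list with the same distance, it was 10.9. norpA was at 0% and 3.21%, inaD at 9.85% and 19.7%, inaC at 0% and 11.4% and Galphaq at 0% in both. The groups did not overlap at 0 of 10 genes, against 6.73% of all genes. They did not overlap at 2 of 10 without double mutant replicate 2 (19.3% of all genes) or without w1118 replicate 3 (13.4%), and at 1 of 10 without w1118 replicate 1 (19.2%). These shares lie near those of all genes. The median difference was -1.15 over the 10 genes and 0 over all genes, while the mean difference was -4.57 and -5.16. The mean of the double mutant was lower at 5 of 10 genes and higher at 0, against 49.3% and 7.76% of all genes. The comparisons with the mutant lines share the w1118 libraries.

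**Figure D4:**
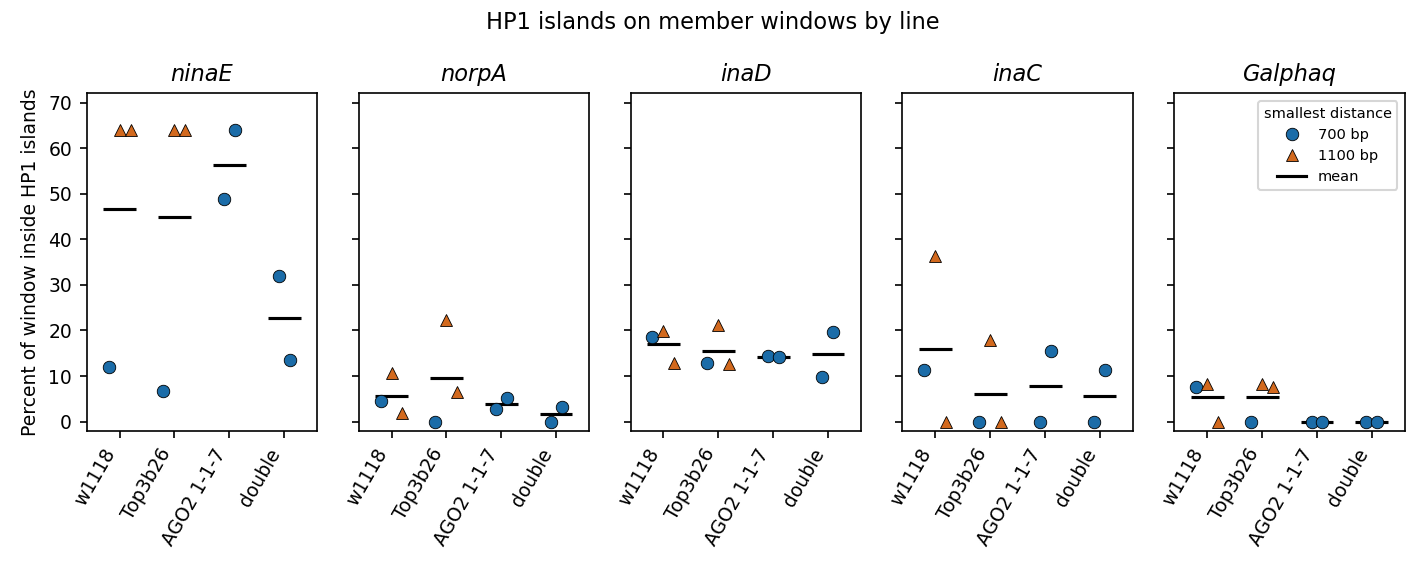
Percentage of the window inside HP1 islands for the 5 genes with any HP1 island, by line, with 1 point for each library a bar for the mean, circles for lists whose closest islands lie 700 bp apart and triangles for those with 1100 bp. At ninaE all 4 triangles are at 63.9%, and at no gene do the points of a mutant clear those of w1118.

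None of these tests could pass 0.05, because the smallest exact permutation p is 0.1 for 3 libraries against 3 or against 2. Over all genes every adjusted p (Benjamini-Hochberg) was 1 in all 5 comparisons, and 0 genes had an unadjusted permutation p under 0.05. A missing call at the 10 genes therefore does not show that HP1 was the same in the lines. Moreover, a mutant cannot lie below w1118 at a gene where any w1118 library is at 0%. For HP1 this was so at trp, trpl, Arr1, Arr2, ninaC, inaC and Galphaq. The same limit holds for such genes among all genes.

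The complementation set had 1 library a line, without replicates, so its values are given side by side with no test. ninaE was at 15.2% in w1118, 21.9% in Top3b26, 13.5% in WT, 18.6% in Y332F and 21.9% in dRGG, and all of it was the upstream block. norpA was at 3.85%, 2.14%, 5.34%, 6.41% and 4.92% in the same order, with its start inside an island in all 5. inaD was at 9.85%, 12.8%, 11.3%, 12.8% and 11.4%. These 3 genes were covered in all 5 lists, against 19.2% of all genes. inaC (16.6%) and Galphaq (11.8%) were covered in Y332F alone, the list that also reached the most genes, 49.7% of all windows against 28.0% to 34.4% in the other lists of the set.

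H3K9me2 was found on the gene bodies of several members, but in few lists. In w1118 replicate 2 it covered ninaE at 65.6%, trp at 40.9%, Arr2 at 26.4%, trpl at 24.6%, Arr1 at 24.2% and inaD at 18.3%, 6 of 10 genes against 34.1% of all. Replicate 1 had none of the 10 and replicate 3 had ninaE alone, at 28.6%. Within w1118, trp, trpl, Arr1, Arr2 and inaD thus rest on 1 library, the one that reached the most genes among the 3 (17% and 19.3% in the others). For trp and trpl this and the untagged FLAG list were the only lists with an island. The FLAG island lay over the start, from -211 to 1488 bp at trp, and the H3K9me2 island further in, from 1589 to 5588 bp at trp and from 7804 to 11703 bp at trpl. Of the H3K9me2 bases of this library in the windows, 43.6% lay inside untagged islands.

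In Top3b26 H3K9me2 islands lay at ninaE (48.8%) and Arr2 (28.2%) in replicate 2, 2 of 10 genes against 13.4% of all, at ninaE (32.0%) in replicate 3 and at none in replicate 1. The replicate 3 island stayed upstream of ninaE and covered 0% of its span. ninaE was thus at 0%, 65.6% and 28.6% in w1118 and at 0%, 48.8% and 32.0% in Top3b26. The means differed by -4.45 points (exact permutation p = 1), and by 12.7 without w1118 replicate 2. Arr2 was at 0%, 26.4% and 0% against 0%, 28.2% and 0%, a difference of 0.587. The groups did not overlap at 0 of 10 genes, against 1.12% of all genes. The median difference was -2.22 over the 10 genes and 0 over all genes, and without w1118 replicate 2 trp, trpl, Arr1 and inaD were at 0% in both lines.

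H3K9me3 was found at ninaE and at no other member, 1 of 10 genes in at least 1 of 6 lists, against 19.7% of all genes. It was at 0%, 20.2% and 63.9% of the window in w1118 and at 38.6%, 37.0% and 37.0% in Top3b26. The Top3b26 values lay close together (SD 0.97, n = 3) and inside the w1118 range. All 3 islands of Top3b26 covered 92.5% of the span and the start site, from -394 or -494 to 1805 bp relative to it. Their scores were near the middle of their lists, where 50.4% to 60.2% of the islands scored higher. The mean was 37.5% in Top3b26 and 28.0% ± 32.7 (SD, n = 3) in w1118, 9.49 points apart (exact permutation p = 0.7). The difference was 9.77 without the Top3b26 library whose description names H3K9me2, and -4.53 without w1118 replicate 1. Without w1118 replicate 3 it was 27.4 and the groups no longer overlapped, as at 2.77% of all genes. The groups did not overlap at 0 of 10 genes, against 1.6% of all genes, and both medians of the difference were 0. Every H3K9me3 base at ninaE lay inside the untagged FLAG island.

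Other genes of the pathway and of the eye were counted in the same way, from lists chosen with results of these data known. The untagged FLAG list reached 24 of 24 further phototransduction genes, 4 of 6 further rhodopsin genes, 7 of 12 genes of photoreceptor structure and synapse, 18 of 18 genes active in most cells and 7 of 24 genes expected to be silent in adult heads, against 67.7% of all genes. Their median coverage was 19.2%, 12.5%, 2.41%, 76.2% and 0%, in the same order, beside 24.5% for the 10 genes. In the same order, Top3b replicate 1 reached 7, 1, 0, 14 and 1 genes, against 17% of all genes, replicate 2 reached 9, 2, 3, 13 and 2, against 29.1%, and replicate 3 reached 4, 0, 1, 4 and 1, against 3.99%. HP1 reached 14, 17 and 9 of the 24 further phototransduction genes in the 3 w1118 libraries, and 5, 5 and 3 of the 10, against 37.2%, 54.7% and 31.9% of all genes. Its highest mean coverage over 15 lists was 71.4% at Gprk1, a receptor kinase gene, and 93.7% among rhodopsin genes at Rh5, whose window was 100% inside untagged islands. In AGO2 1-1-7 the groups did not overlap at 1 of 24 further phototransduction genes, 1 of 6 rhodopsin genes, 1 of 12 genes of structure and synapse and 0 of 24 silent genes, each below w1118, and at 7 of 18 genes active in most cells, 6 below and 1 above, against 10.4% of all genes.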

How the data were processed

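ChIP-seq islands from heads were analysed. The authors aligned reads to dm6 with Bowtie and called islands over input DNA with SICER. The submitters' processing notes also name SAMtools 1.8. The deposited score of each island is a whole number of unstated unit, so it served only as a filter within a list. Depth is not given either, so the number of islands stands in its place and no counting interval could be given.

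Gene spans came from the Ensembl release 115 annotation of BDGP6 (dm6), and promoters from the RefSeq genome of the same build. Island coordinates were taken from 33 lists, islands with a score of at least 200 were kept, and coverage was computed per gene window with numpy 2.4.6 (Python 3.11.15) and drawn with matplotlib 3.10.9. Means were compared over libraries with two-sided exact permutation tests, fitted on all 13968 protein-coding genes and adjusted over all of them. Coverage, test and motif search were tested on simulated data. The 10 members were named in every comparison, genes inside a window where an island lay on them, and of other lists at most the 3 with the highest mean coverage. Members, lists and windows were chosen with earlier results of these data known. Replicate numbers paired the HP1 libraries of Top3b26 and w1118 (correlations of deviations over genes 0.54, 0.588 and 0.328), from the data alone, and the 1100-bp lists carry the same numbers in both lines. Under this replicate block the difference at 0 of 10 genes had the same sign in all 3 pairs. Alternatives were other score minima, flanks and island numbers, leaving out each library, and lists of equal island distance.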

Additional observations from a re-analysis of the deposited data

How the results depend on the processing

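The 0 of 10 genes whose groups did not overlap stayed 0 in the Top3b26 comparisons of HP1 and H3K9me2 under each alternative that gives this count, and in the other 3 under all but these and the block. A minimum score of 400 or equal island numbers gave 1 for HP1 in the double mutant (4.85% and 4.99% of all genes). Leaving out 1 library gave 0 to 2 for HP1 in AGO2 1-1-7 (11.5% to 22.2% of all genes), 0 to 2 in the double mutant (7.97% to 19.3%) and 0 to 1 for H3K9me3 (2.23% to 3.6%). A share of at least 10% of the window gives no count for these comparisons, nor do the 700-bp lists, with 1 library in at least 1 group.

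Top3b islands at 5 genes in at least 1 list (32.3% of all genes) became 1 with a minimum score of 400 (12.2%), 3 without flanks (25.3%) and 2 with equal island numbers (15.2%), and 3 to 5 without 1 library (18.3% to 31.9%). Genes in every Top3b list were 5 with no minimum score (24.2%) and 0 to 3 without 1 library (2.70% to 14.2%). With equal island numbers the untagged FLAG list had 1 gene (9.34%) and FLAG-AGO2 replicate 1 had 0 (8.05%), since 341 islands were then taken from each. With flanks of 5 kb FLAG-AGO2 replicate 2 had 1 (6.13%). The 3 genes in all 5 complementation lists became 1 without flanks (12.9%) and 1 at 10% of the window (10.6%).

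Directions of single differences turned as follows, and the cause was not tested. For HP1 in Top3b26, inaD was 4.22 with equal island numbers and 0.612 among 1100-bp lists, norpA -4.49 among 700-bp lists, Galphaq, with no difference over all lists, -7.61 among 700-bp and 3.8 among 1100-bp lists, and leaving out 1 library gave -19.0 to 17.4 at ninaE, -2.49 to 8.73 at norpA and -17.9 to 0.312 at inaC. For HP1 in AGO2 1-1-7, ninaE was -3.10 with flanks of 5 kb and inaD 2.84 with equal island numbers, with -7.56 to 18.5 at ninaE, -3.63 to 0.748 at norpA and -16.1 to 2.13 at inaC without 1 library. In the double mutant ninaE was 10.9 among 700-bp lists and inaD -7.22 to 2.63 without 1 library. For H3K9me2, Arr2 was -8.81 with a minimum score of 400, ninaE 8.38 with flanks of 5 kb and 5.07 with equal island numbers, and leaving out 1 library gave -20.1 to 12.7 at ninaE and -8.81 to 9.40 at Arr2. For H3K9me3, ninaE was -21.3 both with a minimum score of 400 and with equal island numbers, and -4.53 to 27.4 without 1 library.

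With the replicate block, differences had the same sign in every pair at 0 of 10 genes for HP1, H3K9me2 and H3K9me3 in Top3b26 (4.58%, 2.73% and 2.49% of all genes). With 2 pairs they did at 4 of 10 genes in AGO2 1-1-7 and at 4 of 10 in the double mutant (26.7% and 24.5% of all genes). The smallest paired p is 0.25 for 3 pairs and 0.5 for 2. The numbers were not taken to pair the other libraries. Their correlations were 0.261 and 0.19 in AGO2 1-1-7, 0.344 and 0.242 in the double mutant, -0.209 to 0.193 for H3K9me2 and -0.00593 to 0.166 for H3K9me3. The value of 0.344 is above the lowest for HP1 in Top3b26, 0.328. With 2 mutant libraries, the deviations of each are the negative of the other's (0.344 and -0.344 against w1118 replicate 1 in the double mutant). Such values are not like those from 3 libraries. The number of islands in a list, and a single untagged library, limit what these values can show.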
